A study of Mus musculus with 5 samples.

Results

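A set of 9 genes that control the balance between epithelial and mesenchymal cells were followed through a series of 5 single-cell RNA sequencing libraries. They were picked by symbol: Snai1, Snai2, Twist1, Zeb1 and Zeb2, which drive epithelial-to-mesenchymal transition (EMT), and Ovol1, Ovol2, Esrp1 and Esrp2, which are characteristic of epithelia. All 9 have 1 row each among the 32285 genes of the tables, and all 9 had UMIs in every library. Each library was made from mouse epiblast stem cell-like cells differentiated for 3 days in N2B27 medium with 1 µM of the GSK3 inhibitor Chi, which activates WNT signaling, and 8 ng/ml BMP4. The libraries differed in the FGF2 added, 0, 0.75, 3 or 12 ng/ml, and a further 1, FGFRi, received 30 nM of the FGF receptor inhibitor AZD4547, with no FGF2 dose stated for it. The libraries without inhibitor are called the FGF2 libraries below, including that at 0 ng/ml, which received no FGF2. There was 1 library per condition and no replicate, so no difference between conditions was tested. Every interval given is a 95% interval that covers counting error only.

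During gastrulation, epiblast cells lose E-cadherin (Cdh1), gain N-cadherin (Cdh2) and leave the epithelium through the primitive streak to form mesoderm. The zinc finger proteins SNAIL (Snai1) and SLUG (Snai2), the paired zinc finger and homeodomain proteins ZEB1 and ZEB2, and the basic helix-loop-helix protein TWIST1 act in EMT. The SNAIL and ZEB proteins repress Cdh1 by binding E-boxes. OVOL1 and OVOL2 are zinc finger repressors that hold cells in the epithelial state, among other ways by repressing Zeb genes. ESRP1 and ESRP2 are RNA-binding proteins that direct epithelial splicing and not transcription factors. Their targets include the FGF receptor transcripts, whose isoforms cannot be read from the 3′ counts used here.

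The stretches upstream of 3 start sites are shown because Snai1 and Twist1 had the largest differences between libraries among the EMT drivers, in opposite directions, and Ovol2 stands for the epithelial repressors. Each is the 250 bases before a RefSeq start site (GRCm38.p6), 5′ to 3′ on the strand of the gene, with any E-box of the letters CACCTG or CAGGTG in capitals. Snai1 lies on the plus strand at chr2:167537945-167538194, Twist1 on the plus strand at chr12:33957421-33957670 and Ovol2 on the minus strand at chr2:144331363-144331612. The Ovol2 stretch lies inside the gene as placed by GENCODE (chr2:144305175-144332146), so its start site is internal to that span and not its outer start.
Snai1: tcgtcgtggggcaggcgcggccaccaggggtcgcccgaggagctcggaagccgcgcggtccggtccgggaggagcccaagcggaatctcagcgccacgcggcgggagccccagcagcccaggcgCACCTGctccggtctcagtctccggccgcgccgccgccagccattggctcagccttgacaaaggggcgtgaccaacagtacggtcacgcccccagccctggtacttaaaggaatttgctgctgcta
Twist1: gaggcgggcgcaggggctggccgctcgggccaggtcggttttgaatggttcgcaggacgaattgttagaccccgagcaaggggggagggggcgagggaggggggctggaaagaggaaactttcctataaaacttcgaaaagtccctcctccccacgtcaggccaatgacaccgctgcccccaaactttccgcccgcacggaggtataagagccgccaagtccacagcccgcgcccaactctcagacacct
Ovol2: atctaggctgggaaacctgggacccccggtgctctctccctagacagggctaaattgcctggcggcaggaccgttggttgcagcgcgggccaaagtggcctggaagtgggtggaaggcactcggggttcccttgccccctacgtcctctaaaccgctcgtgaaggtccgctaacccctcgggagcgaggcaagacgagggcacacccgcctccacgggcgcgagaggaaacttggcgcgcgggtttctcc

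The Snai1 stretch held 1 E-box, which began 126 bases before the start site, and those of Twist1 and Ovol2 held none. Promoters of 4 of the 9 genes were matched, and in the window of 300 bases that runs from 250 bases before to 50 bases after the start site none of the Zeb2 entries held an E-box. Of 32544 different promoters of that length, 20.3% held this E-box on either strand. Other motifs were also searched on both strands. The TATA letters TATAAA were found once, 126 bases before the Twist1 start site, and are held by 13.6% of all promoters. The ETS core CCGGAA, bound by effectors of FGF signaling, was found once, at base 37 after the Twist1 start site, against 15.0% of all promoters, and the TCF/LEF letters CTTTGA were in none of the matched windows, against 16.0%. A match describes the letters only.

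Barcodes with at least 2500 detected genes and at most 10% mitochondrial UMIs were used, which left 10653 of 15375 barcodes, 1696 to 2725 per library, with median depths of 24408 to 29661.5 UMIs per cell. Only 7 of 10646 different barcode sequences occurred in more than 1 library. Levels are UMIs per 1000000 UMIs (CPM), the UMIs of a gene summed over the cells of a library or of a group of cells and divided by all UMIs of those cells. Cells were grouped by whether they had at least 1 UMI of Cdh1, of Cdh2, of both or of neither. The 6 epithelial markers Epcam, Cldn6, Cldn7, Krt8, Krt18 and Dsp were all at least 2-fold lower in Cdh2-only than in Cdh1-only cells of every library, so these groups differed in epithelial identity. The 6 mesenchymal markers did not follow as a group. In FGFRi 4 of the 6 tested were at least 2-fold higher in Cdh2-only cells, and at 0 ng/ml 3 of 6, with none lower. At 0.75 ng/ml 1 of 4 was higher and 2 lower. At 3 ng/ml 1 of 4 was higher (Vim) and 1 lower (Sparc), and at 12 ng/ml 1 of 5 was higher and 1 lower. Of all genes with at least 5 CPM in either group, 3.68% to 4.68% were higher and 5.47% to 10.2% lower by this factor. Cdh2-only cells are therefore named by their cadherin and not called mesenchymal.

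Snai1 (chr2:167538195-167542814, plus strand) was the only one of the 9 genes whose level was higher at every step from FGFRi to 12 ng/ml. Its level was 4.24 CPM in FGFRi, 4.95 at 0, 6.67 at 0.75, 14.0 at 3 and 22.9 at 12 ng/ml. Among the libraries without inhibitor the order was that of the FGF2 dose. Only FGFRi and 0 ng/ml could not be told apart by counting error, with a ratio of 1.17 (0.969 to 1.40). The level at 12 ng/ml was 4.63-fold higher (4.08 to 5.27) than at 0 ng/ml. The steps were 1.35-fold (1.17 to 1.56) from 0 to 0.75 ng/ml, 2.09-fold (1.88 to 2.33) from 0.75 to 3 ng/ml and 1.64-fold (1.51 to 1.78) from 3 to 12 ng/ml. Its paralog Snai2 (chr16:14705852-14709385, plus strand) ran the other way. It had 13.9 CPM in FGFRi, 7.80 at 0, 4.15 at 0.75, 4.30 at 3 and 3.15 at 12 ng/ml, and was 2.47-fold lower (2.10 to 2.92) at 12 than at 0 ng/ml. The values at 0.75 and 3 ng/ml differed by no more than counting error (ratio 1.04, 0.883 to 1.22). Snai1 was thus the lower of the pair in FGFRi and the higher at 12 ng/ml, though CPM of different genes are not corrected for transcript length or capture.

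**Figure D1:**
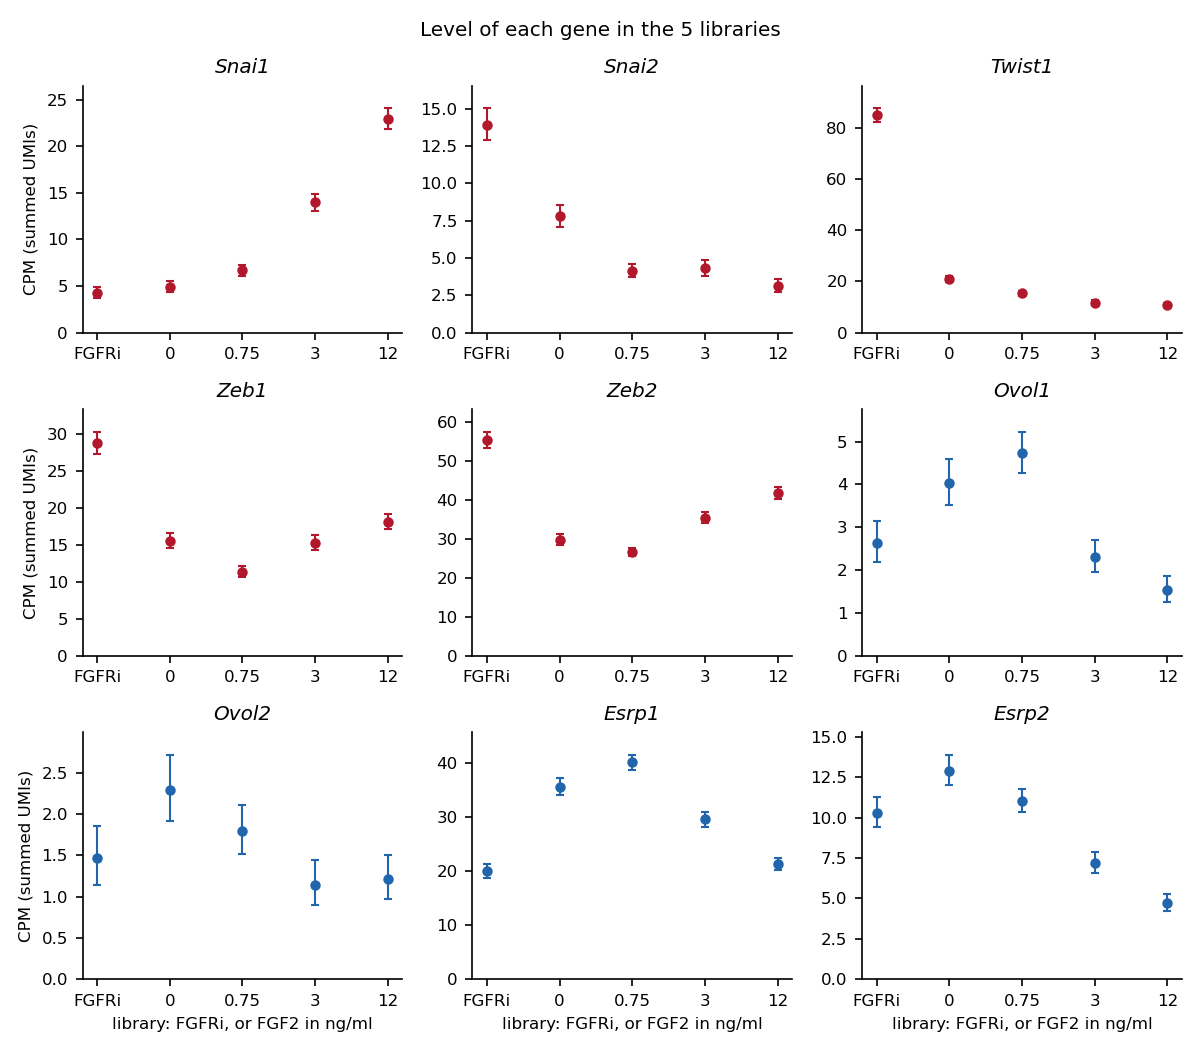
Level of each of the 9 genes in the 5 libraries (x axis: FGFRi, then FGF2 in ng/ml; y axis: CPM over summed UMIs, each panel on its own scale from 0). Points are libraries and bars are 95% Poisson intervals, with EMT drivers in red and epithelial factors in blue; Snai1 goes from 4.24 to 22.9 CPM from left to right while Twist1 goes from 84.9 to 10.7.

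Twist1 (chr12:33957671-33959829, plus strand) was the member that set FGFRi apart. It had 84.9 CPM in FGFRi, 21.0 at 0, 15.3 at 0.75, 11.7 at 3 and 10.7 at 12 ng/ml. The FGFRi library thus held 4.05 times (3.80 to 4.32) the level at 0 ng/ml, while the last step, from 3 to 12 ng/ml, was within counting error (ratio 0.912, 0.823 to 1.01). Twist1 was 1.96-fold lower (1.79 to 2.15) at 12 than at 0 ng/ml, just short of a ratio of 2.

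Zeb1 (chr18:5591860-5775467, plus strand) and Zeb2 (chr2:44983632-45117395, minus strand) were both highest in FGFRi and lowest at 0.75 ng/ml. Zeb1 had 28.7 CPM in FGFRi, 15.5 at 0, 11.3 at 0.75, 15.3 at 3 and 18.1 at 12 ng/ml. Zeb2 had 55.4, 29.8, 26.7, 35.4 and 41.7 CPM in the same order. Both therefore were lower by a factor of nearly 2 from FGFRi to 0 ng/ml, 1.85 (1.70 to 2.02) for Zeb1 and 1.86 (1.75 to 1.98) for Zeb2, and higher again from 0.75 to 12 ng/ml. Between 0 and 12 ng/ml Zeb2 was 1.40-fold higher (1.32 to 1.49) and Zeb1 1.17-fold higher (1.07 to 1.27). For Zeb1, the values at 0 and 3 ng/ml lay within each other's intervals.

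The epithelial factors were highest at 0 or 0.75 ng/ml. Esrp1 (chr4:11331933-11386783, minus strand) had 20.01 CPM in FGFRi, 35.6 at 0, 40.2 at 0.75, 29.6 at 3 and 21.3 at 12 ng/ml, so that both ends of the series were low. Esrp2 (chr8:106130319-106136974, minus strand) had 10.3, 12.9, 11.1, 7.18 and 4.73 CPM in the same order and was 2.73-fold lower (2.40 to 3.12) at 12 than at 0 ng/ml. Esrp1 was 1.67-fold lower (1.56 to 1.79) over the same range. Both splicing regulators were thus lower at 12 than at 0 ng/ml, and Esrp2 by the larger factor.

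Ovol1 (chr19:5549136-5560646, minus strand) and Ovol2 (chr2:144305175-144332146, minus strand) were low throughout. Ovol1 had 2.63, 4.03, 4.73, 2.31 and 1.54 CPM from FGFRi to 12 ng/ml, and Ovol2 had 1.46, 2.29, 1.79, 1.15 and 1.22 CPM. Neither reached 5 CPM in any library, the level below which ratios were not counted. Ovol1 was 2.62-fold lower (2.07 to 3.32) at 12 than at 0 ng/ml and Ovol2 1.88-fold lower (1.42 to 2.50), on 109 and 86 UMIs in the library at 12 ng/ml.

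To set these differences against the rest of the transcriptome, a gene was counted where it had at least 5 CPM in either of a pair of libraries and a ratio of at least 2. From FGFRi to 0 ng/ml 1 of the 6 members above the floor was lower, Twist1, and none was higher, while 6.07% of all genes above the floor were lower and 2.98% higher. From 0 to 0.75 ng/ml none of 7 was counted, against 1.67% of all genes lower and 0.347% higher. From 0.75 to 3 ng/ml 1 of 6 was higher, Snai1, and none lower, against 0.39% of all genes higher and 0.729% lower. From 3 to 12 ng/ml none of 6 was counted, against 0.0725% in each direction. From 0 to 12 ng/ml 1 of 7 was higher, Snai1, and 2 were lower, Snai2 and Esrp2, against 2.23% of all genes higher and 4.69% lower. With so few members, these counts are descriptions of single genes.

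Cdh1 itself had 85.8 CPM in FGFRi, 93.6 at 0, 74.6 at 0.75, 45.3 at 3 and 39.7 at 12 ng/ml, and Cdh2 had 86.3, 57.2, 71.7, 113 and 122 CPM. The shares of the cadherin groups moved with the FGF2 dose, and levels in whole libraries mix these shares with the level inside each group. Cdh1-only cells made up 36.3% of cells in FGFRi, 43.3% at 0, 38.7% at 0.75, 20.8% at 3 and 14.1% at 12 ng/ml. Cdh2-only cells made up 36.7%, 28.7%, 38.8%, 53.9% and 58.7% in the same order. Cells with UMIs of both held 16.7% to 22.1% and were the deepest, with medians of 31058 to 39233 UMIs per cell, and cells with neither held 4.05% to 6.41% and were the shallowest in every library. The medians of the single-cadherin groups were 23608 to 29153 UMIs. No doublet caller was run, and the part of depth and of joined cells in the group with both was not tested.

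Within Cdh2-only cells, Snai1 and Twist1 went in opposite directions along the series. Snai1 had 4.89 CPM there in FGFRi, 7.23 at 0, 11.9 at 0.75, 20.8 at 3 and 32.8 at 12 ng/ml, a 4.54-fold difference (3.73 to 5.57) from 0 to 12 ng/ml. In Cdh1-only cells Snai1 stayed between 2.01 and 3.59 CPM, and its ratio from 0 to 12 ng/ml was 0.891 (0.574 to 1.35). With the groups set after thinning it had 3.06 to 4.18 CPM in Cdh1-only cells and 33.3 CPM in Cdh2-only cells at 12 ng/ml. Cells with both had 4.996 to 5.35 CPM up to 0.75 ng/ml, then 10.6 and 13.5 CPM, a 2.60-fold difference (2.01 to 3.38) from 0 to 12 ng/ml. In the few cells with neither, Snai1 had 2.40 CPM at 0 and 12.7 CPM at 12 ng/ml, a 5.31-fold difference (2.22 to 15.4). The Snai1 difference was thus seen in all groups but the Cdh1-only cells, where it was not detectable.

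Twist1 in Cdh2-only cells had 187 CPM in FGFRi, 34.2 at 0, 20.5 at 0.75, 12.2 at 3 and 11.7 at 12 ng/ml. The FGFRi level was 5.48 times (4.99 to 6.03) that at 0 ng/ml. Twist1 in Cdh1-only cells ranged from 6.59 to 10.8 CPM, and FGFRi and 0 ng/ml were within counting error there (ratio 0.860, 0.704 to 1.05). With 3 and 12 ng/ml the Twist1 levels of Cdh1-only cells were 8.59 and 6.59 CPM, so that the groups lay closer together than in FGFRi. Snai2 in Cdh2-only cells had 23.8, 7.96, 5.54, 4.59 and 3.18 CPM, and so shared the FGFRi maximum. In Cdh1-only cells it was also lower at the higher doses, from 7.51 CPM in FGFRi to 1.30 at 12 ng/ml. Vim, the mesenchymal intermediate filament gene, had 1978 CPM in Cdh2-only cells of FGFRi, 339 at 0 ng/ml and 131 to 178 at 0.75 to 12 ng/ml. FGFRi was also above 0 ng/ml in Vim in Cdh1-only cells (252 against 97.5 CPM), in cells with both (1564 against 648 CPM) and in cells with neither (885 against 218 CPM). Twist1 was 52.7 against 23.7 CPM in cells with both and 95.5 against 33.5 CPM in cells with neither. With the groups set by at least 1 UMI, the higher Vim level of FGFRi was thus seen in all 4 groups. That of Twist1 was seen in all but the Cdh1-only cells. Among cells with 2 or more Cdh1 UMIs after thinning, whatever their Cdh2, Twist1 was also higher in FGFRi. It had 12.5 CPM (9.46 to 16.2) there, against 6.72 CPM (4.90 to 8.996) at 0 ng/ml. A higher Twist1 level of FGFRi in cells with Cdh1 therefore depended on how the cells were grouped.

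**Figure D2:**
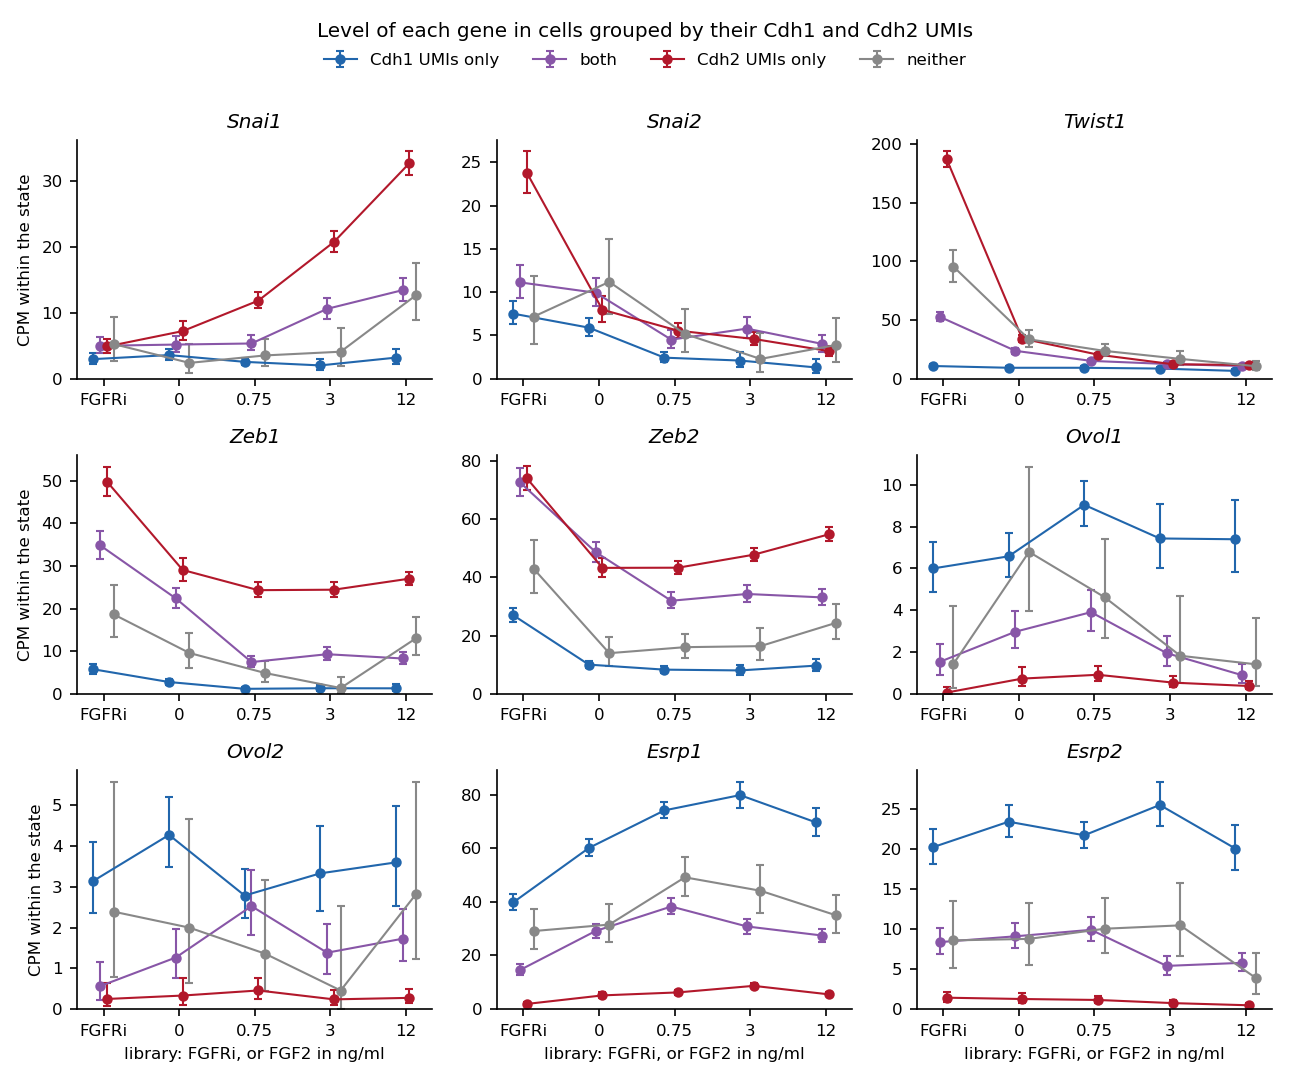
Level of each gene (y axis: CPM within a group of cells, each panel on its own scale) in the 5 libraries (x axis: FGFRi, then FGF2 in ng/ml) for cells with UMIs of Cdh1 only, both cadherins, Cdh2 only or neither. Points are groups of cells, bars are 95% Poisson intervals and lines only join groups; the Snai1 line of Cdh2-only cells climbs from 4.89 to 32.8 CPM, the Twist1 line drops from 187 to 11.7, and Esrp1 and Esrp2 are highest in Cdh1-only cells.

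With the groups set by at least 1 UMI, the Zeb levels differed more between the single-cadherin groups than between FGF2 doses. Zeb1 had 49.8 CPM in Cdh2-only cells of FGFRi and 24.3 to 29.1 CPM in those of the FGF2 libraries, with a ratio of 0.930 (0.831 to 1.04) from 0 to 12 ng/ml. In Cdh1-only cells it had 5.76 CPM in FGFRi and 1.18 to 2.78 CPM with 0 ng/ml or more. Zeb2 had 74.0 CPM in Cdh2-only cells of FGFRi, 43.3 at 0, 43.3 at 0.75, 47.8 at 3 and 54.8 at 12 ng/ml. In Cdh1-only cells Zeb2 had 27.0 CPM in FGFRi against 8.05 to 10.0 CPM in the FGF2 libraries. Cells with both cadherins were close to Cdh2-only cells in Zeb2 in FGFRi (72.6 CPM) and at 0 ng/ml (48.7 CPM), and lay below them from 0.75 ng/ml on, at 32.0 to 34.3 CPM. Both Zeb genes were thus higher in FGFRi than in any FGF2 library in each of the single-cadherin groups set by at least 1 UMI. With the groups set after thinning, Zeb1 in Cdh1-only cells had 9.96 CPM in FGFRi, 8.36 at 0 and 1.33 to 2.73 CPM at the higher doses. FGFRi was then only slightly above 0 ng/ml in Zeb1. At 0 ng/ml Zeb1 was 3.32-fold higher in Cdh2-only than in Cdh1-only cells of these groups. For Zeb1 the groups there did not differ more than the doses. Zeb2 in Cdh1-only cells so set had 34.5 CPM in FGFRi and 12.6 to 19.3 CPM in the FGF2 libraries.

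Among the epithelial factors, Esrp1 in Cdh1-only cells had 39.8 CPM in FGFRi, 60.1 at 0, 74.2 at 0.75, 79.9 at 3 and 69.7 at 12 ng/ml. Its level within the epithelial cells was thus 1.16-fold higher (1.06 to 1.27) at 12 than at 0 ng/ml, the opposite of the whole libraries. With the groups set after thinning every cell to 5000 UMIs this difference was not seen, with 53.0 CPM at 0 and 55.6 CPM at 12 ng/ml. At 0 ng/ml it was 1.51-fold higher (1.38 to 1.66) than in FGFRi. Esrp2 in these cells stayed between 20.1 and 25.5 CPM, with a ratio of 0.856 (0.725 to 1.01) from 0 to 12 ng/ml. Ovol1 had 5.995 to 9.04 CPM and Ovol2 2.78 to 4.27 CPM in Cdh1-only cells, and their ratios from 0 to 12 ng/ml, 1.12 (0.840 to 1.49) and 0.842 (0.559 to 1.24), were within counting error. For Esrp2 other readings of Cdh1-only cells were lower at 12 ng/ml. Its level was 1.27-fold lower (1.06 to 1.52) than at 3 ng/ml, and with the groups set after thinning it had 20.04 CPM (17.98 to 22.3) at 0 and 14.8 CPM (12.2 to 17.7) at 12 ng/ml. It was found in 43.3% of these cells (39.7% to 47.0%) at 0 and 31.8% (26.8% to 37.0%) at 12 ng/ml at medians of 27733 and 27602 UMIs, and in 11.3% (9.11% to 13.8%) and 6.76% (4.34% to 9.98%) at 5000 UMIs per cell. A lower Esrp2 level at 12 than at 0 ng/ml inside Cdh1-only cells therefore depended on the reading. For Ovol1 and Ovol2 none was detectable at this depth, and with the groups set after thinning Ovol1 had 5.92 CPM (4.83 to 7.19) at 0 and 4.59 CPM (3.24 to 6.33) at 12 ng/ml.

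The contrast between Cdh2-only and Cdh1-only cells was large for the Zeb genes and for all epithelial factors in every library. Zeb1 was 8.63-fold higher (6.999 to 10.7) in Cdh2-only cells of FGFRi, 10.5-fold (8.05 to 13.8) at 0, 20.6-fold (14.8 to 29.7) at 0.75, 18.6-fold (11.5 to 32.0) at 3 and 20.8-fold (12.1 to 39.2) at 12 ng/ml. Zeb2 was 2.74-fold higher in FGFRi and 4.31- to 5.94-fold higher in the FGF2 libraries. Esrp1 was 9.21- to 20.7-fold lower in Cdh2-only cells and Esrp2 14.2- to 42.2-fold lower. Zeb genes and Esrp genes thus marked opposite cadherin groups whatever the dose. With the groups set after thinning every cell to 5000 UMIs, the ratios of these 4 genes were smaller: Zeb1 was 4.82-fold higher in FGFRi, 3.32-fold at 0, 17.2-fold at 0.75, 10.4-fold at 3 and 9.19-fold at 12 ng/ml, Zeb2 2.35- to 3.73-fold higher, Esrp1 6.13- to 11.3-fold lower and Esrp2 7.75- to 16.5-fold lower. The direction held for each, and the Zeb1 ratio at 0 ng/ml was the lowest of the FGF2 libraries either way. Ovol1 was lower by 9.01-fold to 19.7-fold in the FGF2 libraries, and in FGFRi it had a single UMI in Cdh2-only cells, a ratio of 0.0103 (2.59e-04 to 0.0589). Set after thinning, the groups gave Ovol1 ratios 5.54- to 11.3-fold lower in the FGF2 libraries and 16.2-fold lower in FGFRi.

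For Snai1 and Twist1 the same contrast depended on the library. Snai1 was 1.65-fold higher (1.14 to 2.39) in Cdh2-only than in Cdh1-only cells of FGFRi, 2.02-fold (1.503 to 2.71) at 0, 4.65-fold (3.63 to 6.01) at 0.75, 10.3-fold (6.99 to 15.9) at 3 and 10.3-fold (7.23 to 15.1) at 12 ng/ml. Twist1 was 17.4-fold higher (15.0 to 20.3) in FGFRi, 3.69-fold (3.14 to 4.34) at 0, 2.21-fold (1.92 to 2.55) at 0.75, 1.42-fold (1.15 to 1.77) at 3 and 1.77-fold (1.37 to 2.33) at 12 ng/ml. With the groups set after thinning the Snai1 ratios were 1.20, 2.12, 4.26, 6.77 and 8.13, and those of Twist1 11.3, 2.46, 2.19, 1.40 and 1.23. Of these 2 genes the one with the larger ratio was thus Twist1 in FGFRi and at 0 ng/ml, and Snai1 from 0.75 ng/ml on. At 0 ng/ml the ratios were close with the groups set after thinning. Snai2 was 1.35-fold higher (1.05 to 1.74) in Cdh2-only cells at 0 ng/ml and 2.20- to 3.17-fold higher in the other libraries, and at 12 ng/ml its 2.45-fold ratio was 1.42-fold with the groups set after thinning.

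**Figure D3:**
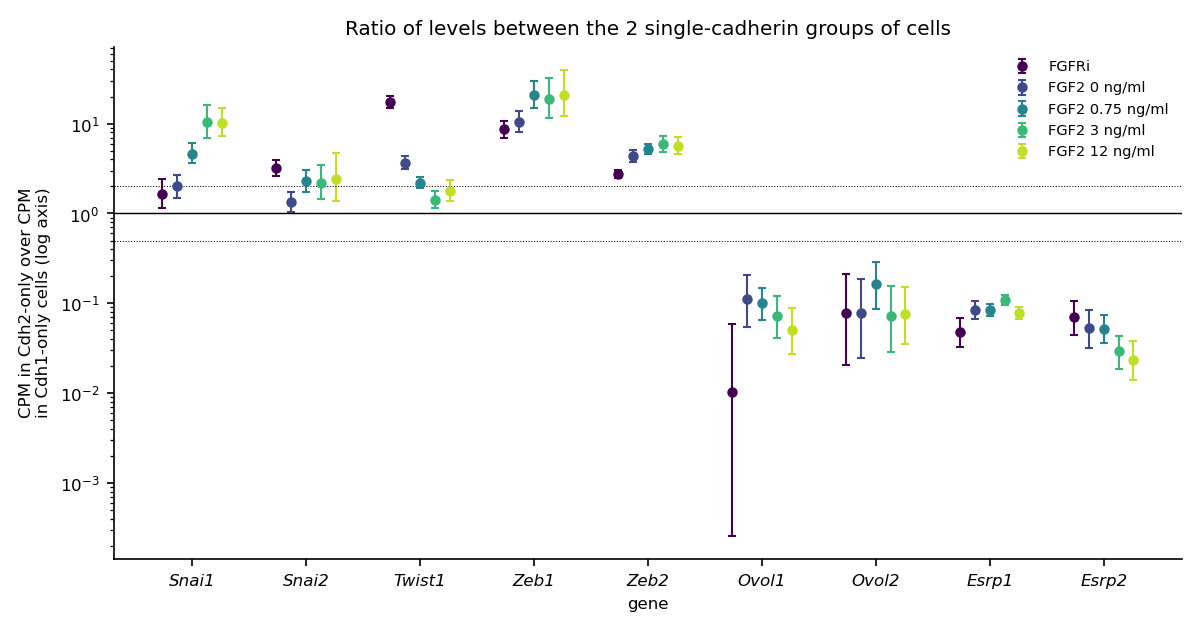
Ratio of the level in Cdh2-only cells to that in Cdh1-only cells for each gene (y axis, log scale) in the 5 libraries (colors). Bars are 95% exact intervals for counting error, the solid line is a ratio of 1 and the dotted lines ratios of 2 in either direction; the EMT drivers lie above 1 and the epithelial factors below it, with Snai1 going from 1.65 in FGFRi to 10.3 at 12 ng/ml and Twist1 from 17.4 to 1.77.

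By the same rule of 5 CPM and a ratio of 2, in FGFRi 4 of 7 members above the floor were higher in Cdh2-only cells and 3 lower, against 4.68% and 5.47% of all genes. At 0 ng/ml 4 of 8 were higher and 3 lower, against 4.53% and 10.2%, and at 0.75 ng/ml 5 of 8 were higher and 3 lower, against 3.84% and 8.63%. At 3 ng/ml 3 of 7 were higher and 3 lower, against 3.68% and 7.13%, and at 12 ng/ml 3 of 7 were higher and 3 lower, against 3.82% and 8.1%. Zeb1 and Zeb2 were counted as higher, and Ovol1, Esrp1 and Esrp2 as lower, in all 5 libraries. Snai1 was counted in the 4 FGF2 libraries, though not at 0 ng/ml among cells with at most 5% mitochondrial UMIs (log2 ratio 0.69, against 1.01), Twist1 in FGFRi and at 0 and 0.75 ng/ml, and Snai2 in FGFRi and at 0.75 ng/ml. Ovol2 never reached 5 CPM. The members were listed for their known roles in EMT or in epithelia.

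The change of each level was then split into a part from the shares of UMIs in the 4 cadherin groups and a part from the levels inside the groups. The groups were those set by at least 1 UMI, and the split was not repeated with the groups set after thinning. Snai1 was 18.0 CPM higher at 12 than at 0 ng/ml, of which 4.82 CPM came with the shares and 13.1 CPM with levels inside groups, 10.6 CPM of it inside Cdh2-only cells. Zeb2 was 11.9 CPM higher, of which 10.9 CPM came with the shares and 0.995 CPM with levels inside groups, a sum in which 4.80 CPM inside Cdh2-only cells stood against -4.14 CPM inside cells with both. For Zeb1 the parts were opposed, 7.42 CPM from the shares and -4.86 CPM from the levels, for a change of 2.56 CPM. Snai1 and Zeb2 thus reached higher library levels by different parts of the split.

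For the genes that were lower at 12 than at 0 ng/ml the parts also differed. Esrp1 changed by -14.3 CPM, with -16.8 CPM from the shares and 2.50 CPM from levels inside groups. Esrp2 changed by -8.19 CPM, of which -5.84 CPM came with the shares, and Ovol1 by -2.49 CPM, of which -1.79 CPM did. Twist1 changed by -10.3 CPM, the sum of 4.204 CPM from the shares and -14.5 CPM from the levels, and Snai2 by -4.65 CPM, the sum of 0.492 and -5.14 CPM. With the groups set by at least 1 UMI, most of the lower level of the epithelial factors came with the shares. With the groups set after thinning, Esrp2 and Ovol1 had lower levels in Cdh1-only cells at 12 than at 0 ng/ml. The part from the shares was not computed for those groups. Twist1 and Snai2 were lower although Cdh2-only cells were more frequent. The change of Twist1 from FGFRi to 0 ng/ml was -64.0 CPM, of which -57.2 CPM lay inside groups and -46.1 CPM inside Cdh2-only cells. The split describes these libraries and does not separate causes.

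**Figure D4:**
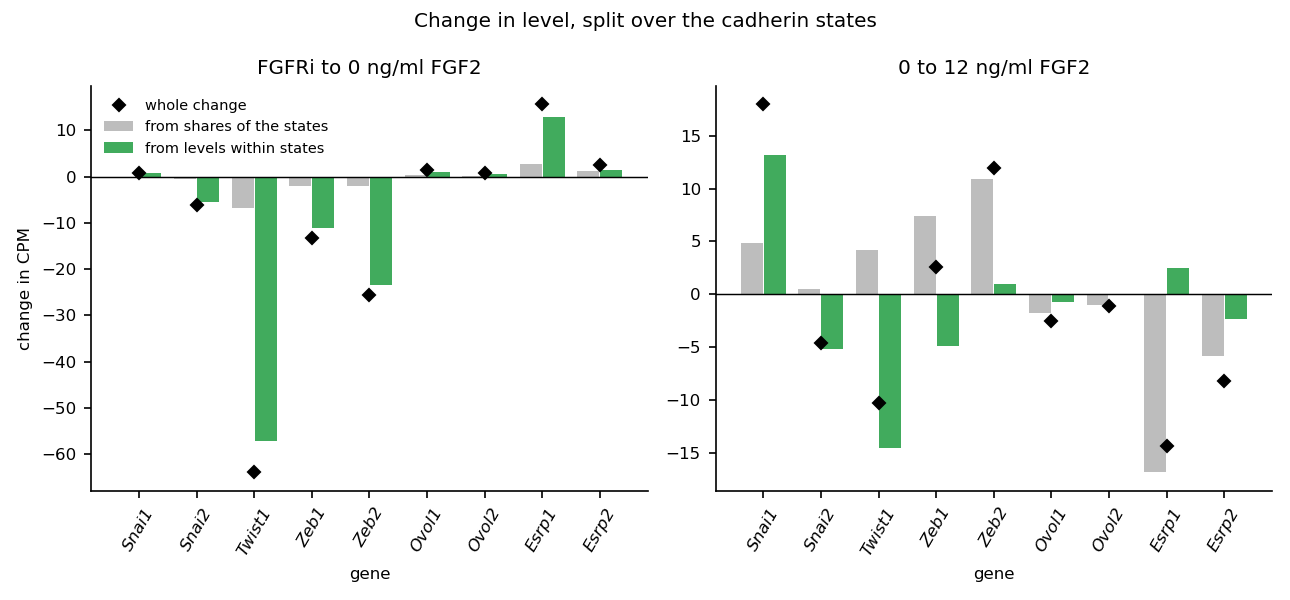
Change in CPM of each gene from FGFRi to 0 ng/ml FGF2 (left) and from 0 to 12 ng/ml (right), with the part from the shares of the 4 cadherin groups (gray bars), the part from levels inside the groups (green bars) and their sum (diamonds). On the right the Snai1 change of 18.0 CPM is mostly green and the Zeb2 change of 11.9 CPM mostly gray; on the left the Twist1 change of -64.0 CPM is mostly green. Groups were set by at least 1 UMI. Single libraries, no error bars.

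Shares of cells with a UMI were compared after every cell was thinned to 5000 UMIs. Snai1 was found in 1.94% of cells in FGFRi, 2.18% at 0, 2.64% at 0.75, 6.59% at 3 and 8.81% at 12 ng/ml. Without thinning the shares were 10.1%, 12.1%, 13.5%, 23.2% and 35.4%. The order was that of the CPM. In Cdh2-only cells the thinned Snai1 share was 2.40%, 2.47%, 4.82%, 9.95% and 12.1%, and in Cdh1-only cells 0.95% to 1.77%. A share near that of Cdh1-only cells cannot be told from background RNA, and those of Cdh2-only cells in FGFRi and at 0 ng/ml were near it.

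Twist1 was found in 25.5% of thinned cells in FGFRi, 8.79% at 0, 7.08% at 0.75, 5.13% at 3 and 5.03% at 12 ng/ml. In Cdh2-only cells of FGFRi it was found in 48.0%, against 5.19% of Cdh1-only cells of that library. Its mean in cells with at least 1 UMI, before thinning, was 4.76 UMIs in FGFRi and 1.45 to 2.45 in the others. Twist1 in FGFRi was thus in more cells and at more UMIs per cell with the gene. Zeb2 was found in 21.3%, 11.1%, 10.8%, 14.7% and 16.7% of thinned cells, with 30.1% of Cdh2-only cells in FGFRi and 18.7% to 21.5% in the FGF2 libraries. Esrp1 was found in 19.1% to 31.6% of Cdh1-only cells and in 0.80% to 4.89% of Cdh2-only cells. Whether the latter came from background RNA or from cells whose Cdh1 was not detected was not tested. Ovol1 was found in 2.94% to 3.89% of Cdh1-only cells and Ovol2 in 0.88% to 2.11%.

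**Figure D5:**
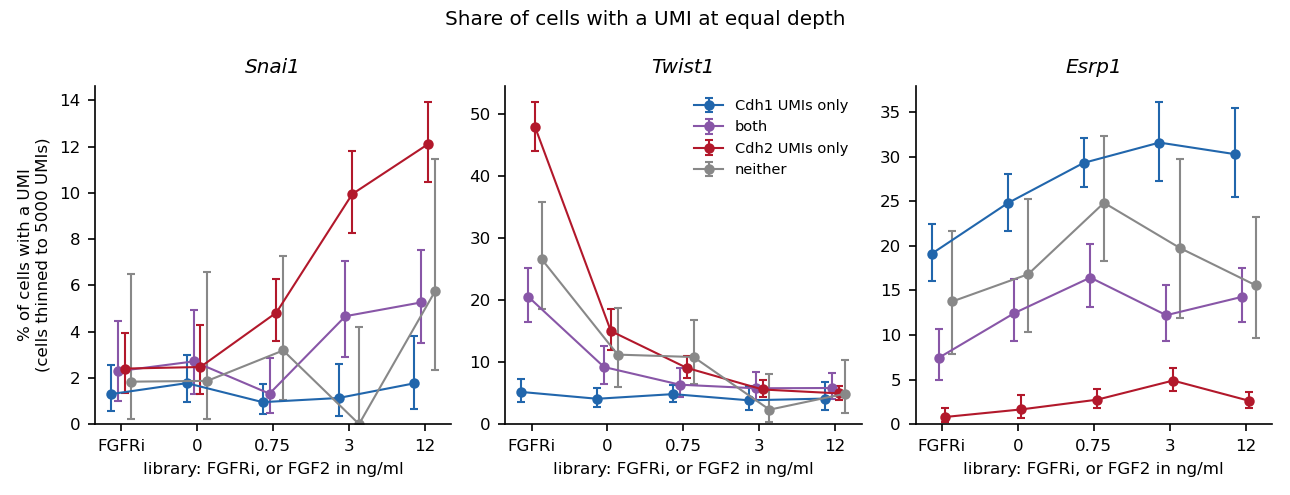
Share of cells with at least 1 UMI of Snai1, Twist1 or Esrp1 (y axis: % of cells, every cell thinned to 5000 UMIs, each panel on its own scale from 0) in the 5 libraries (x axis) for the 4 cadherin groups. Points are groups of cells and bars 95% exact binomial intervals; in Cdh2-only cells Snai1 goes from 2.40% to 12.1% and Twist1 from 48.0% to 4.96%, and Esrp1 is highest in Cdh1-only cells.

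After thinning, 88 of 100 pairs and libraries of an EMT driver and an epithelial factor were found together in fewer cells than their single shares would give. That count includes pairs whose shares gave as little as 0.0844 cells (Snai2 and Ovol2 at 12 ng/ml), where finding none counts as fewer by construction. Where the shares gave at least 5 cells, it was 34 of 36. Other pairs of genes were not counted, so neither count has a background beside it. The exceptions among the 36 were Snai2 and Esrp1 at 0 ng/ml, with 12 cells against 10.5, and Twist1 and Esrp1 at 12 ng/ml, with 13 against 11.8. After thinning, Zeb1 and Esrp1 were found together in 5 cells of FGFRi, 6 at 0, 2 at 0.75, 4 at 3 and 7 at 12 ng/ml, where their single shares would give 19.1, 15.0, 24.5, 19.0 and 20.02 cells. The ratio of observed to this number was 0.0815 to 0.401. For Zeb2 and Esrp1 it was 0.225 to 0.457, and for Snai1 and Esrp1 it was 0.943 in FGFRi and 0.290 at 12 ng/ml, where 6 cells held both. Esrp1 and Esrp2 were found together more often than their single shares would give, with ratios of 1.79 to 2.96, and so were Zeb1 and Zeb2, with ratios of 1.20 to 2.07 in all 5. These ratios rest on few cells and were not tested.

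Cells with UMIs of at least 1 EMT driver and at least 1 epithelial factor made up 3.23% of thinned cells in FGFRi, 3.54% at 0, 2.13% at 0.75, 1.98% at 3 and 2.04% at 12 ng/ml. The single shares would give 7.40%, 5.71%, 5.35%, 4.73% and 3.91%. The share found was below this number in every library. In cells with both cadherins it was 4.29% in FGFRi, 4.61% at 0, 4.61% at 0.75, 2.22% at 3 and 3.95% at 12 ng/ml, above that of the whole library each time, where the single shares of that group would give 6.33%, 5.74%, 5.45%, 4.08% and 4.72%. In Cdh1-only cells it was 4.70%, 4.90%, 2.66%, 3.16% and 3.53% in the same order, also above that of the whole library each time. A share above that of the library was thus not particular to cells with both cadherins. In Cdh2-only cells it was 0.473% to 1.40%. Inside the groups the distance from the number given by the single shares varied, from 4.90% (3.46% to 6.73%) against 4.93% in Cdh1-only cells at 0 ng/ml to 1.64% (0.199% to 5.80%) against 4.88% in cells with neither cadherin at 12 ng/ml. At this depth 39.6% of cells in FGFRi and 55.4% to 56.7% in the other libraries had a UMI of neither kind.

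Snai1 was also read in cells grouped by streak and mesoderm genes. In cells with UMIs of Tbx6, a gene of the presomitic mesoderm, Snai1 had 20.3 CPM at 0, 21.9 at 0.75, 27.6 at 3 and 36.6 at 12 ng/ml, against 3.55, 3.71, 6.01 and 9.58 CPM in cells without. Only 11 cells of FGFRi had Tbx6 UMIs and no Snai1 UMI was found in them. In cells with UMIs of Mesp1, a gene of nascent mesoderm, Snai1 had 19.7, 19.2, 25.5 and 41.1 CPM in the FGF2 libraries. Snai1 was thus as high as 20.3 CPM without added FGF2 in the 135 cells with Tbx6. Cells with Tbx6 were 1196 of 2406 at 12 ng/ml, so their number as well as their Snai1 level was higher there.

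Among cells with UMIs of the streak gene T, Snai1 was higher in those without Cdh1 UMIs at every FGF2 dose. It had 10.9 CPM at 0, 13.7 at 0.75, 21.2 at 3 and 32.5 at 12 ng/ml in T cells without Cdh1, and 3.50, 5.48, 9.11 and 12.2 CPM in T cells with Cdh1. Cells without either had 1.98, 4.19, 11.0 and 22.9 CPM. At 12 ng/ml Zeb1 followed Cdh1 and not T. It had 26.3 CPM in T cells without Cdh1 and 24.6 CPM in cells without either, but 6.35 CPM in T cells with Cdh1. Lack of Cdh1 UMIs alone did not go with a high Zeb1 level in every library. In cells with neither cadherin Zeb1 had 4.89 CPM at 0.75, 1.37 at 3 and 13.1 at 12 ng/ml, against 24.3, 24.4 and 27.0 CPM in Cdh2-only cells. It had 18.6 CPM there in FGFRi and 9.58 at 0 ng/ml. These cells were few and shallow, and at 3 ng/ml 3 of 86 had a Zeb1 UMI. Their Esrp1 level was 49.2, 44.2 and 35.0 CPM from 0.75 to 12 ng/ml, against 6.23, 8.67 and 5.48 CPM in Cdh2-only cells. Whether their Cdh1 was missed was not tested. Twist1 at 0 ng/ml was highest in cells without T and without Cdh1, 43.6 CPM against 25.0 CPM in T cells without Cdh1. T cells with Cdh1 were the deeper, with medians of 30129 to 36862 UMIs against 26818 to 29197.5 in T cells without Cdh1 in the FGF2 libraries, and the part of depth was not tested.

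Twist1 was also read in cells with and without UMIs of the Snai genes. Cells with Snai2 UMIs had 129 CPM of Twist1 in FGFRi, 41.3 at 0, 34.7 at 0.75, 13.9 at 3 and 19.4 at 12 ng/ml, against 71.3, 16.6, 13.2, 11.4 and 9.82 CPM in cells without. The Twist1 level was thus the higher in cells with Snai2 in all 5 libraries, by the smallest factor at 3 ng/ml, with no interval given. After thinning, Snai2 and Twist1 were found together in 52, 13, 9, 0 and 2 cells from FGFRi to 12 ng/ml. Their single shares would give 28.5, 6.15, 3.90, 1.80 and 1.46 cells. At 3 ng/ml the level and the co-detection of Snai2 and Twist1 thus did not go the same way, on few cells. Cells with Snai1 UMIs had 55.3 CPM of Twist1 in FGFRi and 12.8 at 0 ng/ml, below the 89.4 and 22.4 CPM of cells without Snai1. After thinning, Snai1 and Twist1 were found together in 11, 0, 5, 5 and 12 cells from FGFRi to 12 ng/ml. Their single shares would give 8.40, 3.25, 5.10, 7.18 and 10.7 cells, so co-detection was above this number in FGFRi and at 12 ng/ml. In FGFRi the level and the co-detection of this pair thus went opposite ways, on few cells. Twist1 levels by Snai1 are given for FGFRi and 0 ng/ml only. Cells with a UMI of a low gene are deeper than those without, with medians of 26142 to 32381 against 24033 to 29231.5 UMIs for Snai2.

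Among other genes of EMT and of epithelia, taken from lists of known factors, the streak regulators were higher at 12 than at 0 ng/ml, as Snai1 was. Of the 7 above the floor 6 were higher and none lower from 0 to 12 ng/ml, against 2.23% and 4.69% of all genes. The median log2 ratio was 3.06 against 0.01 over all genes above the floor. The list was chosen with earlier results of these data known, so these values only describe it. It holds T, Tbx6 and the ligand gene Fgf8, which the paper already reports as rising with FGF2 dose in these libraries. Mixl1, a homeobox gene of the streak, had the largest ratio, from 1.94 to 29.1 CPM. In the step from FGFRi to 0 ng/ml, where Snai1 could not be told apart, 3 of 4 were higher, against 2.98% of all genes. T went from 0.753 to 26.7 CPM there. From 0 to 0.75 ng/ml 4 of 6 were higher, against 0.347% of all genes, and Snai1 was not counted. From 0.75 to 3 ng/ml 5 of 7 were higher, as was Snai1, against 0.39% of all genes. From 3 to 12 ng/ml none of 7 was counted, against 0.0725% of all genes in each direction. Snai1, 1.64-fold higher there, was not counted either, and the median log2 ratio of the list was 0.24. By this rule the list and Snai1 thus differed only in the steps from FGFRi to 0.75 ng/ml. Of 16 other EMT factors, 2 of 8 above the floor were lower from FGFRi to 0 ng/ml, against 6.07% of all genes. The lowest was Prrx1, a homeobox gene of limb and lateral mesenchyme, from 77.8 to 6.53 CPM. From 0 to 12 ng/ml 3 of 9 were lower, against 4.69% of all genes, Prrx1 the most (0.537 CPM at 12 ng/ml). The forkhead gene Foxc1 was the 1 that was higher, from 6.94 to 17.2 CPM, against 2.23% of all genes.

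Most mesenchymal genes were higher in FGFRi than at 0 ng/ml, as Twist1 was. From FGFRi to 0 ng/ml 17 of the 18 above the floor were lower and none higher, against 6.07% and 2.98% of all genes. Their median log2 ratio was -1.59, and Postn, which encodes a matrix protein, had the largest ratio, from 24.3 to 1.94 CPM. From 0 to 12 ng/ml 6 of 15 were lower, with Tagln, a smooth muscle gene, going from 478 to 42.0 CPM, and 2 were higher, with Pdgfra, a receptor of mesoderm cells, going from 3.43 to 18.1 CPM. Of all genes above the floor 4.69% were lower and 2.23% higher over this range, so that lower calls were the more frequent there too. Pdgfra was also below this level in FGFRi, at 4.10 CPM.

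Other epithelial transcription factors were lower at 12 than at 0 ng/ml in 6 of 9 cases and higher in none, with a median log2 ratio of -1.16. Of all genes above the floor 4.69% were lower and 2.23% higher. Trp63 (p63) had the largest ratio, from 13.9 to 1.07 CPM, and Grhl2, a grainyhead factor, went from 14.9 to 7.35 CPM. From FGFRi to 0 ng/ml 1 of 9 was higher, Tfap2c, from 20.8 to 44.6 CPM, against 2.98% of all genes. Of the epithelial junction and polarity genes 12 of 27 were lower from 0 to 12 ng/ml and none higher, against 4.69% and 2.23% of all genes. Their median log2 ratio was -0.96, and Krt7 had the largest ratio, from 12.2 to 1.95 CPM. In Cdh2-only against Cdh1-only cells 26 of 29 junction genes were lower in FGFRi and 28 of 28 in each FGF2 library. Of all genes 5.47% were lower in FGFRi and 7.13% to 10.2% in the FGF2 libraries.

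The corepressors and turnover factors of SNAIL and ZEB were nearly level. From 0 to 12 ng/ml 1 of 19 was higher and none lower, against 2.23% and 4.69% of all genes. It was Fbxl14, an F-box protein that marks SNAIL for degradation, from 32.7 to 65.8 CPM. From FGFRi to 0 ng/ml 1 of 19 was lower, the LIM protein gene Wtip, from 40.0 to 19.2 CPM. Of all genes above the floor 6.07% were lower in that step, and with 19 genes this count is near that share. Of other splicing regulators, 3 of 9 were lower from 0 to 12 ng/ml, against 4.69% of all genes, most of all Mbnl2, from 57.1 to 18.2 CPM. None was lower from FGFRi to 0 ng/ml. Rbm47, an RNA-binding protein of epithelia, was the lowest in Cdh2-only against Cdh1-only cells of every library. In that contrast 1 or 2 of 9 were lower and none higher, against 5.47% to 10.2% of all genes lower, and with 9 genes this count is near that share.

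Likeness between genes was described over 20 groups, the 4 cadherin groups of each library, by Pearson's r of log2(CPM + 1). These groups share libraries, the groups were set by the cadherins and their depths differ, so no p is given. Zeb1 and Zeb2 were alike (r = 0.93), as were Esrp1 and Esrp2 (0.90) and Snai2 and Twist1 (0.80), while Snai1 was unlike its paralog Snai2 (-0.05) and unlike Twist1 (-0.10). The other pairs of EMT drivers, each with a Zeb gene, had r of 0.57 to 0.72. Every driver had a negative r with every epithelial factor (-0.87 to -0.31). Snai1 was thus unlike Snai2 and Twist1 but not unlike the Zeb genes (0.57 and 0.61). Among 6638 genes with at least 20 CPM in 1 library or more, Esrp1 was most like Prss8 (0.99), Mapk13 (0.98) and Rab25 (0.98), and Esrp2 most like Stard10, Marveld2 and Arrdc1 (all 0.98). Zeb2 was most like Fads1 (0.98), Scd2 (0.96) and Rcn2 (0.96), and Zeb1 most like Ap1m1, Enho (both 0.94) and Golm1 (0.93). Snai1 was most like Inka1 (0.93), Ppp4c (0.92) and Rnf213 (0.92), Snai2 most like Dlk1 (0.90), Nhsl2 (0.90) and Uqcc2 (0.89), and Twist1 most like Tmem258 (0.94), Atp5j2 (0.93) and Prrx1 (0.93). Several of the genes named with Esrp1 and Esrp2, such as Rab25, Prss8 and the tight junction gene Marveld2, belong to epithelial cells.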

How the data were processed

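The authors prepared 10x Genomics 3′ libraries from differentiated cells and deposited UMI counts per gene and barcode, whole numbers that were not normalized. The methods name Cell Ranger with mm10 and GENCODE vM23, and the header of the matrices gives software version 5.0.1, which differs from the version in the methods. Deposited libraries held 50167816 to 84046746 UMIs. Barcodes with at least 2500 genes and at most 10% mt- UMIs were kept. UMIs were summed per library or group of cells and given as CPM. Intervals are exact Poisson for a level, exact conditional for a ratio and exact binomial (Clopper-Pearson) for a share, at 95%, and cover counting error only. Cells are not replicates, and cell-to-cell variation is not in them. For shares, each cell was thinned at random to 5000 UMIs, which every retained cell held. A gene was counted with at least 5 CPM in either group and a ratio of at least 2. The rule and the intervals were tested on simulated data at these depths. No doublets were called. Named were all 9 members, both cadherins, in each list the gene with the largest ratio up and down past the rule, and for members with at least 5 CPM the 3 genes most like them. Vim, Sparc, Grhl2 and Rbm47 and the genes that grouped cells were added by hand after their values were seen. Of the listed genes Qki had no row under that symbol. The members and all lists were chosen with earlier results of these data known. Gene positions are from GENCODE vM21 (GRCm38). Alternatives were other filters on cells, equal weight per cell, TMM scaling (edgeR 4.0.16 in R 4.3.3), other totals, floors and ratios, other definitions of the cadherin groups and other depths of thinning. Python 3.11.15 with numpy 2.4.6, pandas 2.3.3 and scipy 1.17.1 was used.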

Additional observations from a re-analysis of the deposited data

How the results depend on the processing

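No paired analysis was possible because there was 1 library per condition, and no result was tested. The count of members past the rule was unchanged or within 1.5 times of the value reported under every alternative not named here, and no member that passed the rule changed direction under any. All genes were not counted under these alternatives, so the counts that follow have no background beside them. From FGFRi to 0 ng/ml the count was 2 instead of 1 with at most 5% mitochondrial UMIs (Zeb2 was added) and 5 with a ratio of 1.5. From 0 to 0.75 ng/ml it was 1 instead of 0 with a ratio of 1.5 (Snai2). From 0.75 to 3 ng/ml it was 2 instead of 1 with equal weight per cell, without mitochondrial and ribosomal protein genes in the total, with a floor of 1 CPM (each adding Ovol1) and with a ratio of 1.5 (adding Esrp2), and 0 with a floor of 50 CPM or a ratio of 3. From 3 to 12 ng/ml it was 2 instead of 0 with a ratio of 1.5 (Snai1 and Esrp2). From 0 to 12 ng/ml it was 5 instead of 3 with a ratio of 1.5, 1 with a ratio of 3 (Snai1) and 0 with a floor of 50 CPM. Between Cdh2-only and Cdh1-only cells a floor of 50 CPM left 2 members in FGFRi (Twist1 and Zeb2), 1 each at 0, 0.75 and 3 ng/ml (Esrp1) and 2 at 12 ng/ml (Zeb2 and Esrp1), by construction, since few members reach that level. With the groups set after thinning, 1 member at 12 ng/ml, Ovol1, was no longer counted. Of 180 ratios between these groups under other definitions and filters 148 stayed within the counting interval of the reported ratio, and 26 of the 32 that did not came from groups set after thinning. With those groups the levels of members inside them moved beyond their intervals in 22 of 45 cases in Cdh1-only cells, 19 of 45 in Cdh2-only cells, 28 of 45 in cells with both and 19 of 45 in cells with neither. Of 315 ratios of members between libraries, 309 stayed within the counting interval of the reported ratio. The share of cells with a UMI moved beyond its interval in 90 of 135 alternatives, all with 10000 UMIs per cell or no thinning, which raise any share by construction. Depth limits most what can be said of Ovol1 and Ovol2.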
